A study of Mus musculus with 4 samples.

Results

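The 53 genes described here encode the transporters and enzymes of glycolysis, lactate export, pyruvate entry into the mitochondrion and the pentose phosphate pathway, and the regulators and targets of the hypoxia response. They were listed by name. A gene was read at the brightest of the probe sets annotated with its symbol alone, brightness being the mean signal over all 4 arrays. This found 45 of the 53, out of 12394 genes so annotated; 44 were tested among 12393 genes, and Gapdh was held only by control probe sets, which were not tested. No probe set with the symbol alone was found for Slc2a6, Hk3, Gpi1, Pfkfb1, Pfkfb4, Tigar, Eno1 and G6pdx, whose RNA was not analysed here. The cells were dendritic cells (DC), which present antigen to T cells, grown from C57BL/6 mouse marrow, and their RNA was read on Affymetrix expression arrays. The groups were immature DC (2 arrays) and NKT-modulated DC (2 arrays), NKT cells being T cells that recognise lipids. The design text gives CD11c cells as the RNA source, CD11c being a DC integrin; the labels do not say how the NKT cells were added, whether they were removed, for how long the cells were together, or whether the arrays of a group came from separate cultures. All p-values here rest on array-to-array spread alone, and this may be technical.

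Glycolysis splits glucose into pyruvate. Pyruvate either becomes lactate, which leaves the cell through monocarboxylate transporters, or enters the mitochondrion through pyruvate dehydrogenase, which the PDK kinases switch off. The pentose phosphate pathway branches off after hexokinase and yields NADPH and ribose for nucleotides. The alpha subunits HIF-1 alpha (Hif1a) and HIF-2 alpha (Epas1) pair with ARNT and switch on genes for glucose use, vessel growth and the prolyl hydroxylases themselves; with oxygen present, the prolyl hydroxylases PHD2, PHD1 and PHD3 (Egln1, Egln2 and Egln3) mark the alpha subunits for the ligase subunit VHL and for destruction. Much of this control acts on the protein and is not seen by an RNA array. In DC, activation by microbial signals is known to raise glycolysis.

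The data show a split between the genes rather than a common shift. Egln3 rose 10.4-fold and Epas1 5.65-fold in NKT-modulated DC, on the scale of signal + 16. Among the enzymes and transporters, Fbp1, Pfkp, Rpia, Slc2a3, Hk2 and Slc16a1 rose by 0.49 to 0.91 on the log2 scale, and Pdk1, Slc16a3, Pgd and Tpi1 fell, Pdk1 the most, by 1.02. The most strongly hybridised members, Ldha, Pgk1, Aldoa and Tkt, had changes between -0.28 and 0.23 that did not pass. The next brightest were Taldo1, with a change of -0.45 that did not pass, and Pgd, with -0.40, which did. Changes are differences of log2(signal + 16) after quantile normalization, NKT-modulated minus immature, with the standard error from limma (n = 2 arrays per group throughout), and the threshold was an adjusted p of 0.05 over all 22626 probe sets tested.

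Of the 44 members tested, 8 rose and 4 fell. The background was 5.99% of genes higher and 6.9% lower, 12.9% in either direction, and 27.3% of the members passed. The members were chosen with results known and were brighter, with a median mean signal of 817 against 214 for all genes. With dim probe sets left out, 9 of 40 members were higher and 6 lower, and 898 and 1152 of 9699 genes. The part of brightness in these shares was not tested. The members' median change was -0.08 and that of all genes -0.04. The normalized values of the groups did not overlap for 32 members, where 56.3% of all genes had none. Leaving out 1 array left 1 array in its group and fewer residual degrees of freedom. Calls over all genes fell in each such fit. The members' counts were lower whichever array was left out, and the part of the lost replication in this was not tested. Without immature replicate 1 they were 4 higher and 1 lower, without immature replicate 2 they were 5 and 0, and without NKT-modulated replicate 1 or 2 they were 4 and 0 each. At an unadjusted p under 0.05 limma gave 11 higher and 12 lower over all arrays, and 7, 6 and 8 lower in the 3 fits that called 0 lower. Without further normalization 5 rose and 2 fell, and after cyclic loess 8 rose and 2 fell. Egln3, Epas1 and Pfkp passed under each of the 13 alternatives run at that threshold; the other 9 each lost the call under at least 1 of them.

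**Figure D1:**
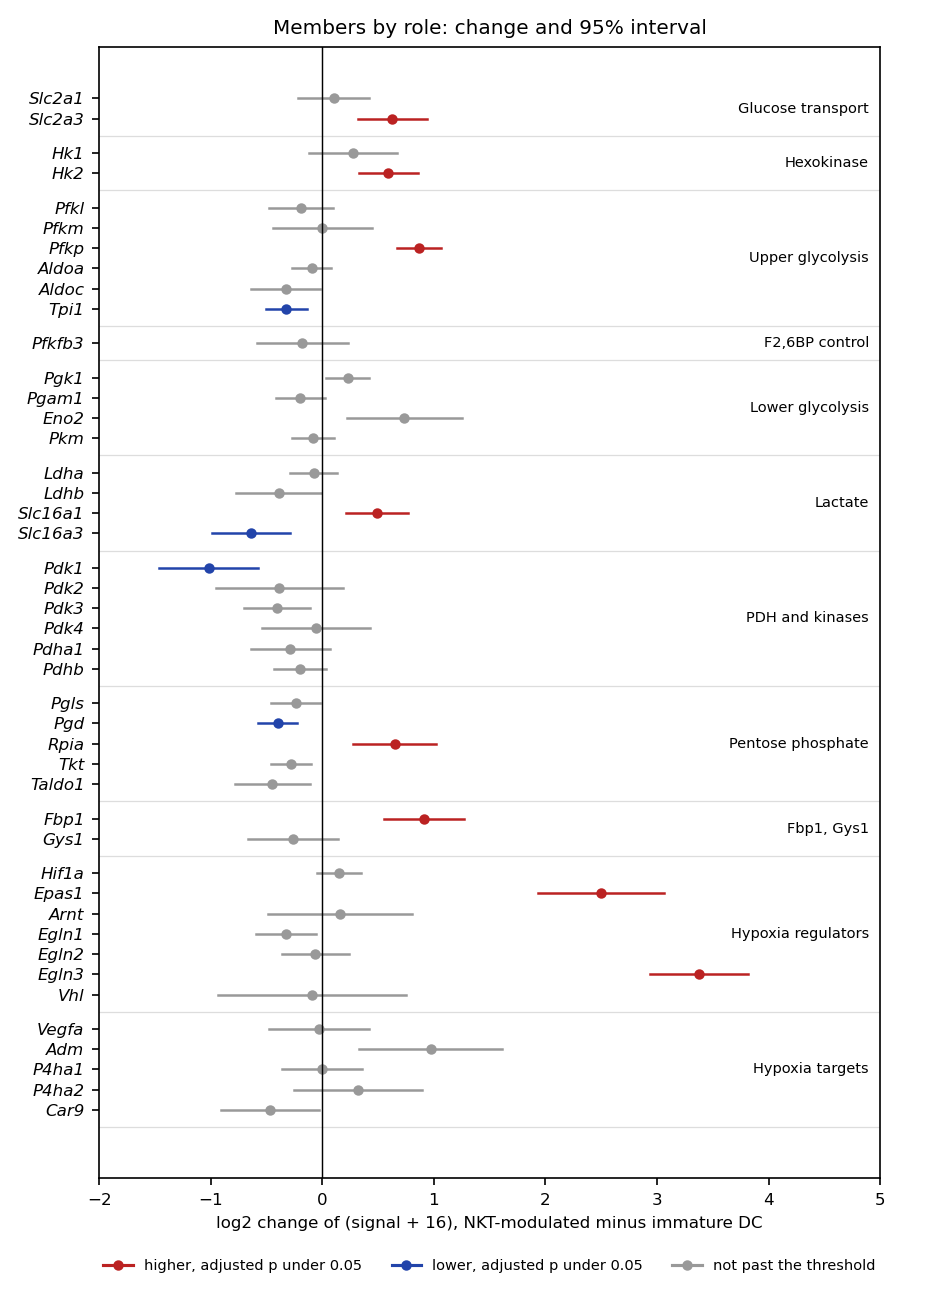
Change of each of the 44 tested members (points) with its 95% interval from limma (bars), NKT-modulated minus immature DC on the scale of log2(signal + 16), ordered by role. Egln3 and Epas1 stand at 3.38 and 2.50; the other 42 lie between -1.02 and 0.97.

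Other genes moved in the same arrays. Of all genes, 5.99% rose and 6.9% fell in limma, 12.9% in either direction. A count of 1 among 4 or 5 genes cannot be told apart from that share. Of 15 measured T and NKT cell markers, 10 rose and 0 fell (11 and 0 at an unadjusted p under 0.05), and their summed signal was 1698 to 1825 in the immature arrays and 7012 to 9319 in the NKT-modulated ones. In the immature arrays the largest terms of that sum were Il2ra, at 805 and 700, and Zap70, at 568 and 469. Il2ra was also the largest term in the NKT-modulated arrays, at 2470 and 1920. No marker of that list was listed at 0, and Cd3d, a chain of the CD3 complex, had signals of 5.38 and 5.58 against 304 and 205. Of 13 cell cycle genes, 11 fell and 0 rose (12 and 0 unadjusted), with summed signals of 17122 to 18808 against 11497 to 11638. Of 10 DC markers, 3 rose and 0 fell (3 and 1 unadjusted), and Itgax, which encodes CD11c, had signals of 5442 and 5537 against 5253 and 4643. The other lists were small: 1 of 5 NK cell markers fell, 1 of 5 B cell markers rose, 1 of 5 macrophage markers rose and 2 fell, 2 of 6 neutrophil markers rose, 1 of 4 basophil and mast cell markers fell, and of 3 erythroid markers 0 passed, also without adjustment. The part of these in the members' changes was not tested, and in these bulk samples a different share of a cell type and a different amount of RNA per cell cannot be told apart. As deposited, the arrays' median signals were 7.18 to 7.44 on the log2 scale, and no pair of arrays held equal values.

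Promoters are shown for the hydroxylase that rose most, the phosphofructokinase that rose, the kinase and the lactate exporter that fell, and Ldha, whose RNA did not pass. Each is the 250 bases before the start site in RefSeq (GRCm38.p6), written 5′ to 3′ on the gene's strand, with capitals on ACGTG and GCGTG, the core that HIF binds, found on either strand. ACGTG read on both strands at neighbouring positions is CACGTG, the E-box to which MYC and other factors bind. The windows lie at chr12:54203875-54204124 for Egln3 (minus strand), chr13:6648772-6649021 for Pfkp (minus), chr2:71872974-71873223 for Pdk1 (plus, 1 of 2 windows), chr11:120948817-120949066 for Slc16a3 (plus) and chr7:46845554-46845803 for Ldha (plus, 1 of 2 windows).
Egln3: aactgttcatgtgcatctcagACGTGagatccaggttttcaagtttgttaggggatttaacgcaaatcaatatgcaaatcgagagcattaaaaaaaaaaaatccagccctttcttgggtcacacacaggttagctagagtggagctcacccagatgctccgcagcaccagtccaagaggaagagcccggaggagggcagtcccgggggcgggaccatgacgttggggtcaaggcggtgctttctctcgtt
Pfkp: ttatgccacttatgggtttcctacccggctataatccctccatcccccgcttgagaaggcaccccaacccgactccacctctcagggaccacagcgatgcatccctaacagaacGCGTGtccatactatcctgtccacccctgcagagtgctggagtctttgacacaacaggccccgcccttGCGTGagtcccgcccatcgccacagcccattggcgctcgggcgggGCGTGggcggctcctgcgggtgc
Pdk1: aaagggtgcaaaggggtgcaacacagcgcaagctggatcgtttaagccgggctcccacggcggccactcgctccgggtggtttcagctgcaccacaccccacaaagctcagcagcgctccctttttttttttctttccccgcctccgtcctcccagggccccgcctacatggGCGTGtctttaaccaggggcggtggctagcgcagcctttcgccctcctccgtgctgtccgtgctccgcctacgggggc
Slc16a3: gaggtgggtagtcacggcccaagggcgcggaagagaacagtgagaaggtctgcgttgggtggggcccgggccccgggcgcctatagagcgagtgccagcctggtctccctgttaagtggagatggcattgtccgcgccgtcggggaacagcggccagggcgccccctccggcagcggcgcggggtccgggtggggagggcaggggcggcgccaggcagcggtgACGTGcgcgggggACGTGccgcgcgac
Ldha: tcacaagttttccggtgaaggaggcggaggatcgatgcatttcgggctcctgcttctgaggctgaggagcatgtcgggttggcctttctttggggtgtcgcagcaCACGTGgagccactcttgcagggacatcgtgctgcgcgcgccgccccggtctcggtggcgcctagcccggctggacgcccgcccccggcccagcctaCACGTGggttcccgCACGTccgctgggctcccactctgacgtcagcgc
The Egln3 window held 1 match, that of Pfkp 3, of Pdk1 1, of Slc16a3 2 and of Ldha 5, of which 4 are the strands of 2 E-boxes. Counted from the start site, with bases before it negative, the match of Egln3 began at -229 and those of Slc16a3 at -27 and -14. RefSeq windows were matched for 51 members, tested on the arrays or not, but not for Epas1 or Slc2a3. Of their 71 windows, 53 (74.6%) held a match, against 38.6% of all 32851 windows in the table and 50.6% of the 12566 windows of tested genes. By call, with untested members left out, 5 of 6 windows of members that rose and 3 of 6 of those that fell held one. Of the windows of tested members that did not pass, 36 of 45 (80.0%) did. A match is a run of 5 letters and not a binding site, and the letters were found on members that rose, fell and did neither.

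The hypoxia regulators held the widest changes. Egln3, the prolyl hydroxylase PHD3, had signals of 97.4 and 155 in immature DC and 1315 and 1294 in NKT-modulated DC. The groups lay far apart, and the NKT-modulated arrays were nearly equal. The change was 3.38 ± 0.18 (adjusted p = 2.71e-04). It was the only member past the 0.001 that the design text names, applied to the adjusted p. Its other probe set had a change of 2.63 ± 0.62 (adjusted p = 0.0480), with signals of 7.95 and 85.6 against 282 and 238, so that its immature arrays differed widely.

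Epas1, the gene of HIF-2 alpha, had signals of 29.9 and 38.8 in immature DC, dim on these arrays, and 258 and 238 in NKT-modulated DC. The groups did not overlap, and the change was 2.50 ± 0.23 (adjusted p = 0.00191). Because the immature signals lie near the pseudocount of 16, the size depends on it: 2.94 with a pseudocount of 1 and 1.75 with 64. Hif1a, the sister subunit, had 4733 and 5478 against 5857 and 5854, a change of 0.15 ± 0.08 (adjusted p = 0.311) with a 95% interval from -0.04 to 0.35. This interval lies below that of Epas1, from 1.94 to 3.06; the difference between these changes was not tested. Of the 4 probe sets of Hif1a, the third brightest was called, at 0.50 ± 0.10 (adjusted p = 0.0264). That probe set and others named beside the brightest were picked after their values were seen.

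The other regulators did not pass. Egln1, the hydroxylase PHD2 that sets HIF levels in most cells, had signals of 660.0 and 782 against 527 and 477, which did not overlap, and a change of -0.33 ± 0.11 (adjusted p = 0.126). Its dimmer probe set fell by 0.59 ± 0.13 (adjusted p = 0.0407). Egln2, or PHD1, had a change of -0.06 ± 0.12. The partner subunit Arnt and the ligase gene Vhl were dim, with mean signals of 89.0 and 99.4, and their intervals reached from -0.49 to 0.80 and from -0.93 to 0.75. The NKT-modulated arrays disagreed on Vhl, at 129 and 58.6 on either side of the immature 101 and 109.

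Of 5 hypoxia targets tested in the list, 0 passed in limma, with 1 higher and 1 lower at an unadjusted p under 0.05. Of all genes 12.9% passed, and a count of 0 among 5 cannot be told apart from that share. Vegfa, the vessel growth factor and a standard HIF target, had 218 and 311 in immature DC and 231 and 203 in NKT-modulated DC; the ranges overlapped, and the change was -0.03 ± 0.18 with an interval from -0.48 to 0.41. Car9, a membrane carbonic anhydrase, had 243 and 240.2 against 144 and 148, groups that did not overlap, with a change of -0.47 ± 0.18 (adjusted p = 0.173). Adm, encoding the vasodilator peptide adrenomedullin, went from 3.89 and 6.43 to 34.7 and 18.5, all near or below the pseudocount, with a change of 0.97 ± 0.26 (adjusted p = 0.0724). The collagen prolyl hydroxylase genes P4ha1 and P4ha2 had changes of 0.00 and 0.32, P4ha2 at signals of 17.3 or less.

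A further list of 29 genes known to be induced by hypoxia had 25 measured, of which 6 rose and 2 fell (32%, against the 12.9% of all genes), and the median change was 0.08. Ndrg1, a stress-responsive gene, rose by 1.87 ± 0.08 (adjusted p = 1.43e-04), from 828 and 961 to 3280.3 and 2985. Edn1, the gene of the vasoconstrictor endothelin-1, rose by 2.72 ± 0.29 and Rora, a nuclear receptor, by 1.45 ± 0.16. Ppfia4, a liprin, fell by 2.68 ± 0.28, from 543 and 587 to 50.7 and 88.0. The remaining calls of the list were rises of Ak4, a mitochondrial adenylate kinase, Ero1a, an oxidase of protein folding, and Plod2, a collagen lysyl hydroxylase, and a fall of Tfrc, the transferrin receptor. Bnip3, Kdm3a, Hmox1 and Ddit4, known HIF or stress targets named after their values were seen, had changes between -0.08 and 0.08. Of 9 other regulators of the HIF pathway measured, limma called 0, with 3 higher and 2 lower at an unadjusted p under 0.05.

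**Figure D2:**
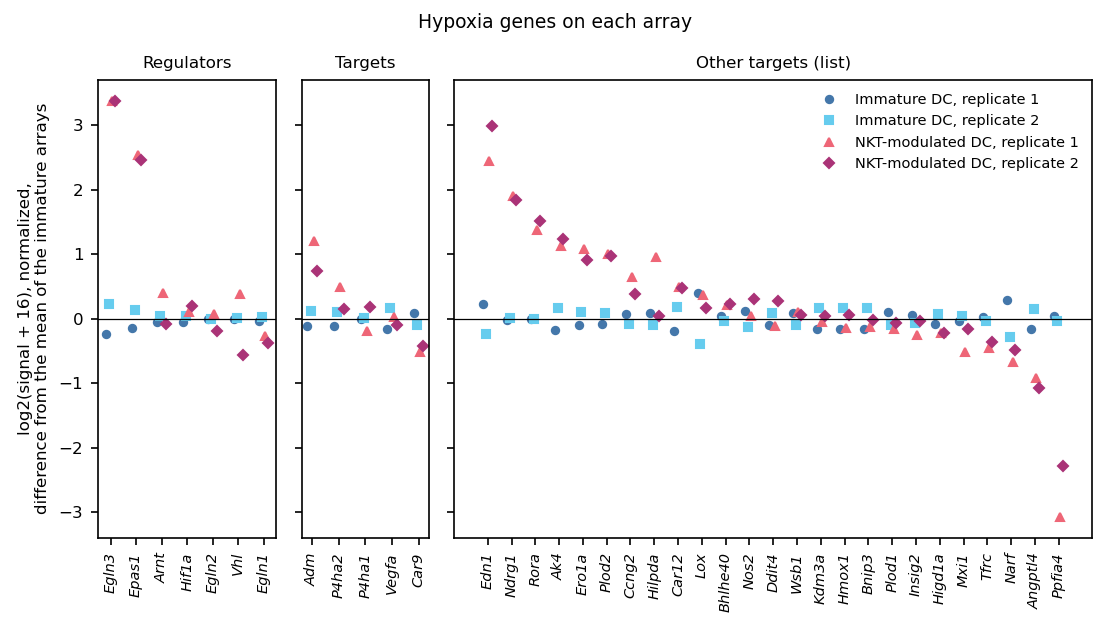
Normalized log2(signal + 16) of hypoxia genes on each array, as the difference from the mean of both immature arrays, for the 7 regulators, the 5 targets and 25 measured genes of the further target list. Egln3, Epas1, Edn1 and Ndrg1 are high on both NKT-modulated arrays and Ppfia4 is low on both, while Vegfa and Hif1a lie close to the line at 0.

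At glucose uptake and its first step, Slc2a3 and Hk2 rose, and Slc2a1 and Hk1 did not pass; the differences between the isoforms were not tested, and their 95% intervals overlap (-0.21 to 0.42 for Slc2a1 and 0.32 to 0.94 for Slc2a3, -0.12 to 0.67 for Hk1 and 0.33 to 0.86 for Hk2). Slc2a1, the transporter GLUT1, had signals of 2132 and 3061 in immature DC and 2689 and 2690.1 in NKT-modulated DC, both of which lay between the immature arrays; the change was 0.10 ± 0.13 (adjusted p = 0.704), and none of its 3 probe sets passed. Slc2a3, the high-affinity transporter GLUT3, had 367 and 469 against 602 and 534, which did not overlap. It rose by 0.63 ± 0.13 (adjusted p = 0.0305). The call was lost without each array in turn and for the mean of its 4 probe sets (0.29, adjusted p = 0.447), of which the dimmest pair had signals of 24.6 or less.

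Hk2, the inducible hexokinase, had 2025 and 2554 against 3227 and 3560.5 and rose by 0.59 ± 0.11 (adjusted p = 0.0217). Both NKT-modulated arrays lay above both immature arrays. The call was lost without immature replicate 1 (adjusted p = 0.0799) and without NKT-modulated replicate 1 or 2 (0.0554 and 0.109). Hk1, the constitutive form, had 814 and 838 against 1069 and 759, an overlap, with a change of 0.27 ± 0.16.

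Of the phosphofructokinase genes, whose products commit sugar to glycolysis, only the platelet form passed. Pfkp had 1609 and 1901 in immature DC and 3095 and 3120.2 in NKT-modulated DC and rose by 0.87 ± 0.08 (1.83-fold, adjusted p = 0.00197). The groups did not overlap, and the other probe set of Pfkp gave 0.89 ± 0.18 (adjusted p = 0.0287). The 95% interval of Pfkp ran from 0.67 to 1.07, that of the liver form Pfkl from -0.47 to 0.10 and that of the muscle form Pfkm from -0.44 to 0.44. Across the alternatives Pfkp stayed between 0.82 and 0.92. Pfkfb3, which makes the activator fructose 2,6-bisphosphate, had 545 and 746 against 438 and 558, an overlap, and a change of -0.18 ± 0.17.

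Further down the chain, Tpi1 was the member that passed. Tpi1, triose phosphate isomerase, had 3862 and 4196 against 3215 and 3182, which did not overlap, and fell by 0.32 ± 0.08 (adjusted p = 0.0477), a call lost without each array in turn. Aldoa, the main aldolase, had a change of -0.10 ± 0.07, and Aldoc, the brain aldolase, -0.33 ± 0.13. Pgk1, which makes the first ATP of the pathway, had 9186 and 9442 against 12430.4 and 10796.9, and Pgam1, the mutase after it, 4661 and 5210 against 4168 and 4573. Neither pair of groups overlapped, and the changes of 0.23 ± 0.08 and -0.20 ± 0.09 did not pass. Pkm, pyruvate kinase, had 3734 and 4225 against 3736 and 3789, with the NKT-modulated signals inside the immature range (the normalized values did not overlap), and a change of -0.08 ± 0.08. Of the enolases, Eno2 had 98.1 and 88.8 against 149 and 148, a change of 0.73 ± 0.21 (adjusted p = 0.0856). Eno3, which is not a member, fell by 1.06 ± 0.13 (limma adjusted p = 0.0045), and Eno1 was not analysed.

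Gapdh was seen through the 3 control probe sets along its transcript. The 3′ probe set had signals of 10243 and 9656 in immature DC and 11001 and 10383 in NKT-modulated DC, and the 5′ one 5819 and 6710 against 5880.4 and 5257. The ranges overlapped in the latter and not in the former. With control probe sets included in the fit, an alternative chosen after seeing the data, the changes were 0.03 ± 0.07 at the 3′ end and -0.22 ± 0.08 at the 5′ end, and neither passed (adjusted p = 0.864 and adjusted p = 0.178). The 3′ to 5′ ratio of Gapdh, a sign of RNA integrity and labelling, was 1.76 and 1.44 against 1.87 and 1.98, and that of Actb 1.18 and 1.16 against 1.09 and 1.18. Its part in the members' changes was not tested.

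The lactate step showed opposite changes of its transporters. Slc16a1, encoding MCT1, which carries lactate and pyruvate both ways, had 1000.3 and 1086 against 1258 and 1475, with no overlap, and rose by 0.49 ± 0.11 (adjusted p = 0.0455). Slc16a3, encoding MCT4, the exporter of highly glycolytic cells, had 350.3 and 426 against 216 and 200.4, with no overlap, and fell by 0.64 ± 0.14 (adjusted p = 0.0414). Each lost its call without each array in turn and kept its direction. Ldha, the muscle-type lactate dehydrogenase and among the brightest members, had 10613 and 9919 against 10176 and 10412, an overlap, and a change of -0.08 ± 0.09 with an interval from -0.29 to 0.13. Ldhb, the heart type, had a change of -0.39 ± 0.16 (adjusted p = 0.190).

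Of 6 genes tested at the entry to the mitochondrion, 1 fell and 0 rose in limma (2 and 0 unadjusted), or 16.7% called, against 12.9% of all genes. Pdk1, a kinase that shuts pyruvate dehydrogenase, had 387 and 562 in immature DC and 211 and 169 in NKT-modulated DC. The groups did not overlap, and it fell by 1.02 ± 0.18 (adjusted p = 0.0206). The dimmer of its 2 probe sets had -0.33 ± 0.28 (adjusted p = 0.542), and the call was lost without immature replicate 2 (adjusted p = 0.109) and without NKT-modulated replicate 1 or 2 (0.0559 and 0.0882). Pdk3 had 902 and 1173 against 660 and 738, also without overlap, and a change of -0.40 ± 0.12 (adjusted p = 0.0970). Pdk2 and Pdk4 had mean signals of 19.6 and 1.72, near and below the pseudocount of 16. Their changes of -0.39 ± 0.23 and -0.05 ± 0.20 did not pass, and little can be read from them at such signals. The subunits of the dehydrogenase, Pdha1 and Pdhb, had -0.29 ± 0.15 and -0.20 ± 0.09.

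Of 5 pentose phosphate genes tested, 1 rose and 1 fell in limma (1 and 4 unadjusted), or 40% called, against 12.9% of all genes. Pgd, 6-phosphogluconate dehydrogenase of the NADPH-yielding branch, had 7740.1 and 7859 against 6259 and 5984, with no overlap, and fell by 0.40 ± 0.07 (adjusted p = 0.0211); 3 of its 4 probe sets were called lower, and the fourth had adjusted p = 0.0647. That call was lost without each array in turn, with changes from -0.41 to -0.38. Rpia, which makes ribose 5-phosphate, had 587 and 674 against 1040 and 759, high on NKT-modulated replicate 1 and with no overlap, and rose by 0.65 ± 0.15 (adjusted p = 0.0467). Without that array its change was 0.44 (adjusted p = 0.172), and it lost the call without either immature array. Tkt, transketolase, had 9867 and 9515 against 8749 and 7909, a change of -0.28 ± 0.07 (adjusted p = 0.0622), and its dimmer probe set fell by 0.49 ± 0.10 (adjusted p = 0.0357). Taldo1, transaldolase, and Pgls, the lactonase, had -0.45 ± 0.14 and -0.24 ± 0.09 and did not pass. Of 7 further genes of this pathway, 1 rose and 0 fell in limma (1 and 1 unadjusted; 14.3% called, against 12.9% of all genes): Prps1, which turns ribose 5-phosphate into the nucleotide precursor PRPP, by 1.06 ± 0.10 (adjusted p = 0.00183), from 981 and 1248 to 2284 and 2107.

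Fbp1, the phosphatase that opposes phosphofructokinase in gluconeogenesis, had the largest rise among the enzymes. Its signals were 865 and 1243 in immature DC and 1703 and 1952 in NKT-modulated DC, with no overlap, and it rose by 0.91 ± 0.15 (1.88-fold, adjusted p = 0.0135). The call was lost without NKT-modulated replicate 2 (0.79, adjusted p = 0.0756). Gys1, glycogen synthase, had a change of -0.26 ± 0.17. Of 15 genes of glycogen turnover, 0 rose and 2 fell in limma (0 and 5 unadjusted; 13.3% called, against 12.9% of all genes): Pygl, the phosphorylase that releases glucose units, by 0.78 ± 0.09 and Phka2, a subunit of its activating kinase, by 0.54 ± 0.12. Of 18 further genes of glycolysis and pyruvate use, 0 rose and 2 fell (0 and 5 unadjusted; 11.1% called): the enolase Eno3 by 1.06 ± 0.13, from 1013 and 965 to 423 and 402, and Me2, a mitochondrial malic enzyme, by 0.69 ± 0.14. Of 17 genes of the tricarboxylic acid cycle, which burns the pyruvate that enters, 0 rose and 4 fell (0 and 7 unadjusted; 23.5% called), namely Idh2 by 0.65 ± 0.09, Idh3g and Sdhd by 0.46 ± 0.09 each, and Suclg2, dim, by 1.05 ± 0.25.

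**Figure D3:**
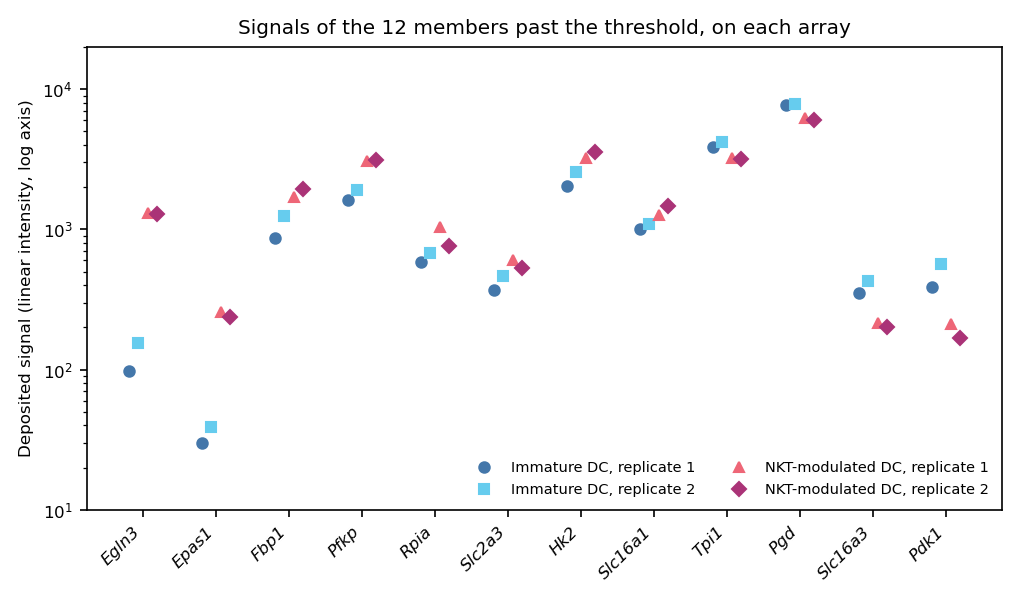
Deposited signals of the 12 members past the threshold on each of the 4 arrays, on a log axis, ordered from the largest rise to the largest fall. In all 12 the NKT-modulated arrays lie on 1 side of the immature arrays, with the widest gaps for Egln3 and Epas1. The 12 were picked by limma on these same arrays, which favours such a separation. In normalized values the groups did not overlap for 56.3% of all genes.

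Enzymes and hypoxia regulators were then set side by side. Of 32 enzymes and transporters tested, 6 rose and 4 fell (8 and 10 unadjusted, limma), or 31.25% called, against 12.9% of all genes. Their changes had a median of -0.18 and a range from -1.02 to 0.91. Of the 7 hypoxia regulators, 2 rose and 0 fell (2 and 1 unadjusted, limma), or 28.6% called. Their changes had a median of 0.15 and a range from -0.33 to 3.38. The enzyme median minus the regulator median was -0.34. This difference rests on NKT-modulated replicate 1: by array it was -0.62 there and 0.0080 on NKT-modulated replicate 2, against 0.027 and -0.027 on the immature arrays, and without NKT-modulated replicate 1 it was 0.013. With the mean of all probe sets of a gene it was -0.02. No p-value is given for it, since the members were chosen with results known. The NKT-modulated arrays thus disagreed on this difference.

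**Figure D4:**
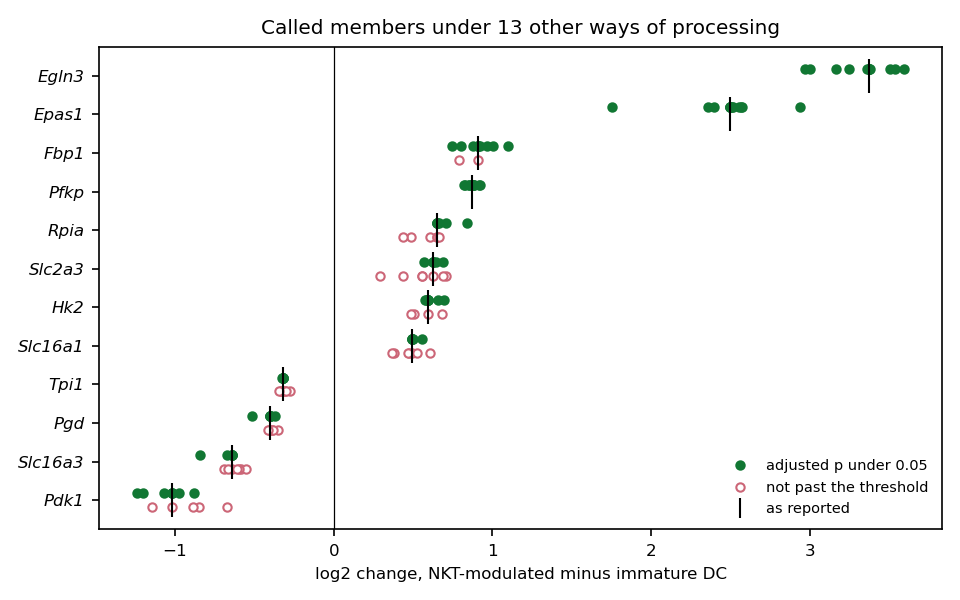
Log2 changes of the 12 called members under 13 other ways of processing at the threshold of 0.05, filled where the adjusted p passed and open where it did not; the bar is the value as reported. All 12 keep their sign in all 13, and Egln3, Epas1 and Pfkp have filled points only.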

How the data were processed

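RNA of 4 samples was measured on Affymetrix expression arrays. The files hold linear intensities as deposited, with a value for each of 22690 probe sets; the authors analysed the images with GCOS, per the submitters' processing notes. How they were scaled is not given in the sources used here. Triplicates are named in the design text, as is a labelling kit other than that of the sample labels.

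Values became log2(signal + 16) and were quantile normalized. Without the 64 controls, 22626 probe sets were tested with limma 3.58.1 in R 4.3.3 (lmFit, eBayes with an intensity trend, two-sided; 2 residual and 4.13 prior degrees of freedom), Benjamini-Hochberg adjusted over all of them. The limma fit was tested on values simulated on the normalized log2 scale, which did not test the transformation, the normalization or the choice of probe set. Adding 16 understates changes of dim genes, and the number of arrays limits the precision.

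Of these probe sets, 20380 had 1 gene symbol in the platform's annotation and 691 several; symbols were updated by gene ID through RefSeq's GRCm38.p6 table. For 6 members (Slc2a3, Aldoa, Tpi1, Pgk1, Pgd and Tkt) the brightest probe set is of a kind that may also bind other transcripts.

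The members and lists were chosen with earlier results of these data known. Values on each array were to be given for called and for rate-setting or regulatory members, and up to 4 called genes named per pathway list by the smallest p; array values of other members, and further genes that complete a short count, were added after their values were seen. Alternatives covered normalization, pseudocount, dim probe sets, the variance trend, the threshold, the probe set summary, each array left out and, added after seeing the data, control probe sets and the scope of the adjustment.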

Additional observations from a re-analysis of the deposited data

How the results depend on the processing

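Of the 12 called members, 3 (Egln3, Epas1 and Pfkp) passed under all 13 alternatives at the threshold of 0.05, 9 lost the call under at least 1, and 0 changed sign. Of the uncalled members, 5 gained a call under at least 1, namely Eno2, Tkt, Taldo1, Aldoc and Egln1, through the filter on dim probe sets or the mean of a gene's probe sets. Members higher and lower numbered 5 and 2 without further normalization, where 35.2% of all called genes were higher, against 46.5% as reported. After cyclic loess 2 members were lower. Without the intensity trend of the variance, members higher and lower numbered 3 and 0 (10 and 5 at an unadjusted p under 0.05, limma), and genes 384 and 272, against 742 and 855. At an adjusted p under 0.001 they numbered 1 and 0 among members and 131 and 22 among genes. Leaving out 1 array gave 4 to 5 members higher, 0 to 1 lower, 397 to 510 genes higher and 305 to 406 lower, with fewer arrays in the fit; the enzyme median minus the regulator median ranged from -0.63 to 0.013. Adjusting over genes alone gave 787 higher and 945 lower genes and the same counts of members. The cause of the other differences was not tested. Signals below the pseudocount of 16, as for Pdk4, limit what can be said of those genes. No paired analysis was possible because the labels carry no replicate number shared between the groups.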
